A study of Mus musculus with 3 samples.

Results

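The mitosis and G2/M genes described here were 40 genes, out of 19862 genes with a name on the arrays, whose products carry a cell from the end of DNA synthesis through chromosome segregation and cell division. They were taken by name from a list of genes with known roles, and 69 of the 41157 probes belonged to them. All 40 were well above background on at least 1 array. The samples were mPTECs, the labels' name for cells isolated from the kidney of male mice aged 1 month. Day 0 stands for freshly isolated cells, and days 1 and 3 for cells kept on dishes for that time in DMEM/F12 medium with insulin, transferrin and selenium, non-essential amino acids, hydrocortisone, penicillin, streptomycin and 1% fetal bovine serum. Each day was represented by 1 sample on 1 Agilent 1-colour array, so no difference below has a replicate check or a test, and the 3 comparisons between days share their arrays. How many mice gave each sample is not given in the sources used here.

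Entry into mitosis is driven by the kinase Cdk1 bound to cyclins A and B. Cdc25 phosphatases activate it, and polo and aurora kinases act beside it on centrosomes, chromosomes and the spindle. Kinetochore proteins tie chromosomes to microtubules, and the spindle checkpoint holds the anaphase-promoting complex in check until every chromosome is attached. That complex, with Cdc20 and the ubiquitin-conjugating enzyme Ube2c, then marks cyclin B and securin for destruction, and the central spindle directs cleavage of the cell. Many of these genes are transcribed in G2 under a shared programme of B-Myb and FoxM1. The DREAM complex also controls them, and it reads the cell cycle genes homology region, or CHR, in their promoters. Proximal tubule cells of the adult kidney seldom divide but can re-enter the cell cycle after injury or in culture.

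Levels are given as relative signal, the processed signal of a probe divided by the 75th percentile of its array, and differences as fold or log2 ratio between days. A relative signal compares days for 1 probe and does not compare genes, since probes differ in how brightly they bind. Spots printed several times for 1 probe had an SD of 0.138 (log2) within an array, the median over 666 probe values, which makes a typical ratio of 2 single spots uncertain by 1.14-fold. That spread covers spots of an array that were all well above background. It says nothing of other cultures or of signals near background. A gene was counted as higher or lower from a 4-fold difference. The 75th percentile of the arrays was 1184, 1509 and 1515 intensity units on days 0, 1 and 3. Against that scaling, the spike-in spots stood at -0.17 on day 1 and -0.45 on day 3 with day 0 as zero (log2), and the median spot at -0.21 and -0.31. For 12 reference genes the corresponding median shifts were 0.30 and 0.21.

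Nearly the whole list was higher after 3 days on the dish. Of the 40 genes, 38 were at least 4-fold higher on day 3 than on day 0, with a median log2 ratio of 5.31 (39.6-fold) and a range from -0.47 to 8.15. Among all 18994 genes measured in that comparison, 5.35% passed the same line upward and 7.85% downward, no member being 4-fold lower, and the median log2 ratio was -0.11. In bulk RNA, more cells in G2 or mitosis and more of these transcripts in each such cell cannot be told apart.

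Most of the difference lay between day 1 and day 3. On day 1 only 7 of the 40 were at least 4-fold higher than on day 0 (Cdk1, Ska1, Tpx2, Top2a, Aurkb, Birc5 and Cdca8), against 3.38% of the 18890 genes measured, and 16 were at least 2-fold higher, against 13.5% of all genes. None was 4-fold lower on day 1, against 5.15% of all genes. The members' median log2 ratio was 0.84, and that of all genes was -0.11. From day 1 to day 3, 37 of 40 were at least 4-fold higher and none as much lower, against 1.62% and 1.27% of 18914 genes, with a median log2 ratio of 4.12 (17.3-fold) beside -0.04 for all genes. By size of ratio in either direction the later step was the larger one for 38 members, the exceptions being Tpx2 and, on its brighter probe, Bub1. By the brightest probes 39 members had their highest signal on day 3, Bub1 being the exception, and the other probe of Bub1 was highest on day 3 too. For 23 members the first day left the signal within 2-fold of fresh cells and the following days brought at least a 2-fold increase, while 16 were at least 2-fold higher in both steps. Of all genes, 6.99% were at least 2-fold higher from day 1 to day 3, a ceiling for the share with either of these joint patterns. The shares of all genes with a larger later step or with their highest signal on day 3 are not given here.

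**Figure D1:**
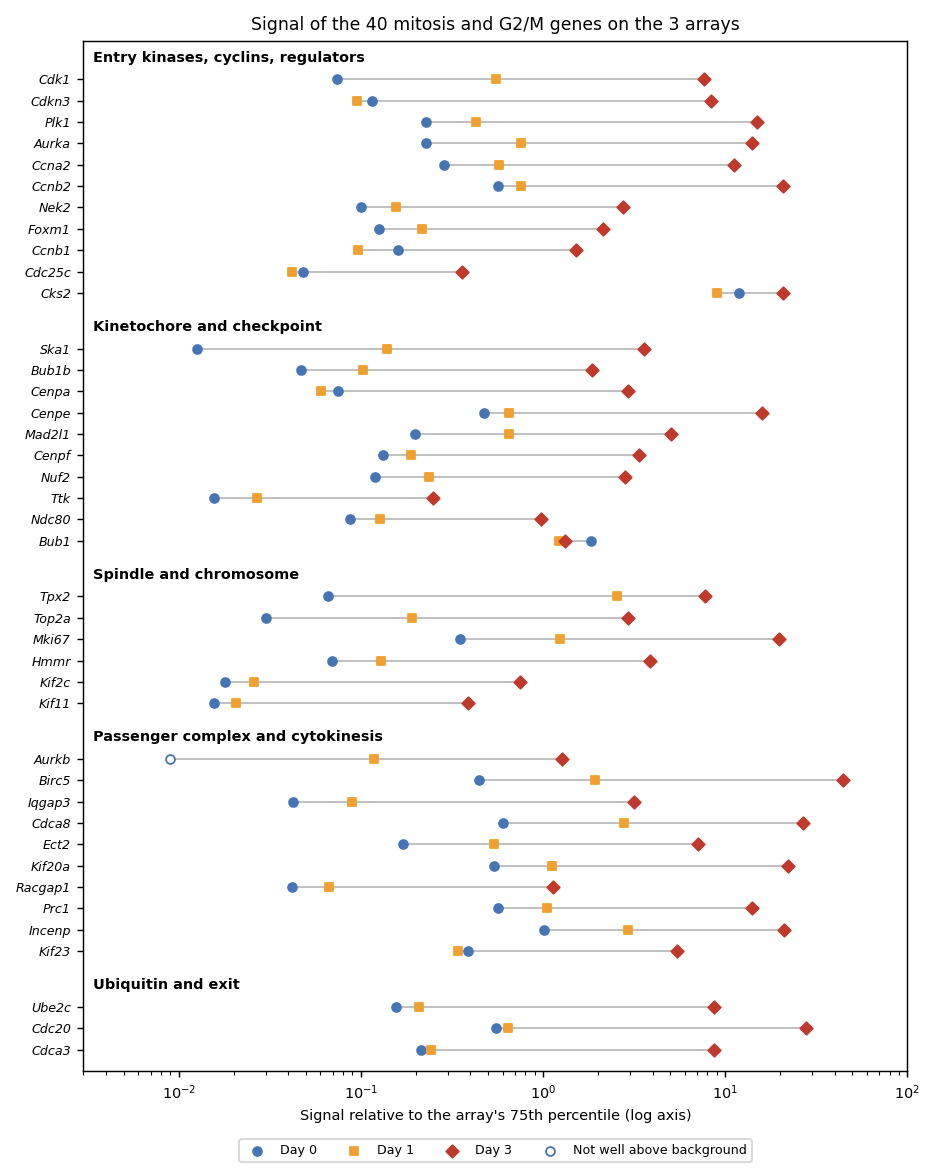
Signal of the 40 mitosis and G2/M genes on days 0, 1 and 3, by role, as processed signal over the array's 75th percentile on a log axis, 1 point per array and the brightest probe per gene. For most genes the day 1 point lies near that of day 0 and the day 3 point far to the right, except in Bub1 and Cks2, whose 3 points lie close together. The open point, Aurkb on day 0, was not well above background.

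The entry kinases, cyclins and their regulators held 11 members, of which 10 were at least 4-fold higher on day 3 than on day 0 and 1, Cdk1, was so on day 1. Cdk1, the kinase whose activity starts mitosis, had relative signals of 0.0744 on day 0, 0.550 on day 1 and 7.64 on day 3. It was thus 7.39-fold higher on day 1 than on day 0, and a further 13.9-fold higher by day 3, 103-fold in all. That probe stood above those of the cyclin partners in its day 1 ratio, but the other Cdk1 probe had a log2 ratio of 0.14 on day 1 and 1 Ccnb1 probe 1.79, so that order turns with the probe. Ccna2, cyclin A2, which works in S phase as well as in G2, had signals of 0.287, 0.575 and 11.3, a 2.01-fold difference on the first day and 39.3-fold by day 3. Ccnb2, cyclin B2, went from 0.569 to 0.755 and then 20.8, which was 1.33-fold on day 1 and 36.6-fold on day 3.

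Ccnb1, cyclin B1, the main mitotic partner of Cdk1, had 0.160, 0.0966 and 1.53 on its brightest probe. It was 1.65-fold lower on day 1 by that probe, higher instead when its 3 probes were averaged or the background was modelled in another way, and 9.58-fold higher on day 3 than on day 0. Cdc25c, a phosphatase that removes the inhibitory phosphates from Cdk1, had 0.0483, 0.0421 and 0.361. Its day 1 signal lay within 1.15-fold of day 0 and its day 3 signal was 7.48-fold higher. Cdkn3, a phosphatase that acts on cyclin-dependent kinases, had 0.116, 0.0948 and 8.40, slightly lower on day 1 and 72.6-fold higher on day 3. Its 88.6-fold difference between day 1 and day 3 was the largest of the 40 over that step.

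The other kinases of the entry group were each at least 27.5-fold higher on day 3 than in fresh cells. Plk1, polo-like kinase, had 0.229, 0.428 and 14.9, which was 1.86-fold on day 1 and 65.0-fold on day 3. Aurka, the centrosomal aurora kinase, had 0.229, 0.754 and 14.1, with 3.29-fold on day 1 and 61.6-fold on day 3. Nek2, which acts in centrosome separation, had 0.100, 0.156 and 2.76 and was 27.5-fold higher on day 3. Foxm1, the transcription factor of the G2 programme, had 0.126, 0.218 and 2.13. It was 1.73-fold higher on day 1 and 16.9-fold on day 3, below the list's median fold on both days.

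Cks2, a small subunit that binds Cdk1, stood apart from the rest of the entry group. Its signals were 11.9, 9.04 and 20.9, so that it was 1.32-fold lower on day 1 and only 1.75-fold higher on day 3 than in fresh cells. Its other probe gave 4.15, 2.81 and 7.12, with a log2 ratio of 0.78 between day 3 and day 0 beside 0.81 on the brighter one. Both probes therefore showed a strong signal before culture and less than a 2-fold difference by day 3. The close relative Cks1b, not a member, had 0.555, 4.59 and 27.3 and was 49.2-fold higher on day 3.

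Of the 10 kinetochore and checkpoint genes, 9 were at least 4-fold higher on day 3 than on day 0, with a group median of 4.67 (log2), and 1, Ska1, was so on day 1. Ska1, a subunit of the complex that couples kinetochores to shrinking microtubules, had relative signals of 0.0127, 0.140 and 3.59. It was 11.1-fold higher on day 1 and 284-fold on day 3, the largest ratio of the list by brightest probe, from a day 0 signal close to the lowest ones well above background (1.14% of the 75th percentile on that array). The log2 ratio of 8.15 became 5.73 with another background correction, below the 6.34 of Birc5, and 4.40 with its 2 probes averaged, below the 6.88 of Tpx2. The kinetochore microtubule binders Ndc80 and Nuf2 had 0.0874, 0.128 and 0.970, and 0.120, 0.238 and 2.81, in that order. Ndc80 was 11.1-fold and Nuf2 23.5-fold higher on day 3 than on day 0.

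Cenpa, the histone variant that marks the centromere, had 0.0752, 0.0601 and 2.94. It was 1.25-fold lower on day 1 and 39.2-fold higher on day 3. Cenpe, a kinetochore motor, had 0.474, 0.651 and 15.9, a 33.6-fold difference by day 3. Cenpf, a large kinetochore protein that builds up in G2, had 0.133, 0.188 and 3.38, a 25.5-fold difference. Neither Cenpe nor Cenpf differed by as much as 2-fold on day 1.

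Among the checkpoint genes, Mad2l1, whose product inhibits Cdc20, had 0.197, 0.652 and 5.04, which was 3.30-fold on day 1 and 25.5-fold on day 3. Bub1b, the BubR1 component of the checkpoint, had 0.0468, 0.102 and 1.87, or 2.19-fold and 39.9-fold. Ttk, the Mps1 kinase at the head of the checkpoint, had 0.0156, 0.0270 and 0.250, or 1.73-fold and 16.0-fold. The 2 probes of Bub1, a checkpoint kinase at the kinetochore, gave opposite pictures. The brighter one had 1.85, 1.23 and 1.33, a day 3 to day 0 ratio of 0.721, while the dimmer one had 0.0143, 0.0939 and 2.08 and was 146-fold higher on day 3.

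The 6 spindle and chromosome genes were all at least 4-fold higher on day 3 than on day 0, with a median log2 ratio of 5.80. Tpx2, which activates aurora A and nucleates spindle microtubules, had relative signals of 0.0659, 2.55 and 7.76 from its only probe. It was 38.6-fold higher on day 1 and 118-fold on day 3, and the 3.05-fold difference between day 1 and day 3 was smaller than its first step. Among members higher in both steps this held for no other. Top2a, the topoisomerase that untangles chromosomes, had 0.0302, 0.192 and 2.93, or 6.36-fold on day 1 and 97.0-fold on day 3. Mki67, the source of the Ki-67 antigen used to count cycling cells, had 0.351, 1.24 and 19.7, or 3.54-fold and 56.1-fold.

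The spindle motors Kif11 and Kif2c were among the 23 members within 2-fold of fresh cells on day 1 and at least 2-fold higher afterwards. Kif11, the motor that pushes spindle poles apart, had 0.0157, 0.0207 and 0.386, within 2-fold on day 1 and 24.6-fold higher on day 3. Kif2c, a microtubule depolymerase, had 0.0180, 0.0258 and 0.744 and was 41.4-fold higher on day 3. On day 1 both were slightly below their day 0 level under another background correction. Hmmr, a hyaluronan receptor that also sits on spindle microtubules, had 0.0698, 0.130 and 3.88 and was 55.7-fold higher on day 3.

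The 10 chromosomal passenger, central spindle and cytokinesis genes were all at least 4-fold higher on day 3 than on day 0 (median log2 ratio 5.38), and 3 of them were so on day 1. All 3 belong to the chromosomal passenger complex, which corrects attachments and then guides cleavage. Aurkb, its kinase, had 0.00896, 0.118 and 1.28, the first of these not well above background, which made it at least 10.3-fold and at least 111-fold higher. Birc5, survivin, had 0.445, 1.94 and 44.6, or 4.37-fold and 100.3-fold. Cdca8, borealin, had 0.606, 2.78 and 26.7, or 4.59-fold and 44.1-fold. The scaffold Incenp, the other subunit, had 1.01, 2.93 and 21.0, or 2.91-fold and 20.9-fold. All 4 subunits were thus at least 2-fold higher on day 1, as were 16 of the 40 members.

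The remaining genes of this group were those of the central spindle and of cleavage itself. Ect2, which is needed for cleavage, had 0.170, 0.538 and 7.11, which was 3.17-fold on day 1 and 42.0-fold on day 3. Its partner Racgap1 had 0.0419, 0.0666 and 1.13, or 1.59-fold and 27.0-fold. Kif23, the motor that joins Racgap1 in centralspindlin, had 0.389, 0.343 and 5.42. It stayed within 1.13-fold on day 1, slightly below day 0 here and slightly above it with arrays centred on their medians, and was 14.0-fold higher on day 3.

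Kif20a, a motor of the central spindle, had 0.539, 1.12 and 22.2, or 2.07-fold on day 1 and 41.2-fold on day 3. Prc1, which bundles antiparallel microtubules, had 0.563, 1.05 and 14.1, or 1.87-fold and 25.1-fold. Iqgap3, a scaffold protein of proliferating cells, had 0.0424, 0.0896 and 3.17, or 2.12-fold and 74.9-fold. These 3 lay near the 2-fold line on the first day.

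The 3 genes of ubiquitin transfer and mitotic exit were the flattest group on day 1, with log2 ratios from 0.19 to 0.42, and all 3 were at least 4-fold higher on day 3. Cdc20, the activator of the anaphase-promoting complex, had 0.549, 0.643 and 27.8. It was 1.17-fold higher on day 1, a direction that turned when arrays were scaled to reference genes, and 50.5-fold higher on day 3. Ube2c, the ubiquitin-conjugating enzyme of that complex, had 0.156, 0.209 and 8.71, or 1.34-fold and 55.8-fold. Cdca3, a protein that promotes mitotic entry through degradation of Wee1, had 0.214, 0.244 and 8.75, or 1.14-fold and 40.9-fold. Its day 1 direction also turned with reference gene scaling, and its other probe lay at -0.15 (log2). From day 1 to day 3 the 3 genes of this group had a median log2 ratio of 5.38. The entry group had 4.15, the kinetochore group 3.87, the spindle group 4.10 and the cytokinesis group 3.87. Since Cdca3 acts on entry, the 3 do not stand for mitotic exit alone. With 3 genes in the group and 1 array a day, this ordering of groups is a description.

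A gene stood by its brightest probe in the values above, and the members' other probes did not always give the same picture. Of the 40 genes, 17 had 1 probe, 17 had 2 and 6 had 3, and 22 had a day 3 over day 0 ratio from at least 2 probes. In 14 of those 22 every such probe was at least 4-fold higher on day 3, and the median gap between the highest and the lowest probe of a gene was 2.03 on the log2 scale. The gap was above 2 in 11 genes (Bub1, Ccnb1, Cdca8, Cdk1, Cenpa, Cenpf, Ect2, Kif11, Nuf2, Ska1 and Top2a). Over all 69 probes, 66 gave a ratio, 57 were at least 4-fold higher on day 3 and 7 lay within 2-fold.

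Bub1 held the widest contrast. Both probes lie on the minus strand of chromosome 2 (mm9, the build of the array files), the brighter at chr2:127626326-127626385 and the dimmer at chr2:127626988-127627047, each designed on a RefSeq transcript of the gene. Their log2 ratios between day 3 and day 0 were -0.47 and 7.19. For Ccnb1 all 3 probes were higher on day 3, by log2 ratios of 3.26, 3.65 and 7.45. The probe with 7.45 had relative signals of 0.0290, 0.101 and 5.07, a 175-fold difference, where the brightest probe gave 9.58-fold.

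The brightest probe of Cdk1 maps to minus-strand sequence from 68805423 to 68807832 on chromosome 10, a span of 2410 bases for a 60-base probe, so its bases are not contiguous in the genome. Its other probe, at chr10:68800164-68800223, had 0.0378, 0.0416 and 0.0893, a log2 ratio of 1.24 beside 6.68. Of the 69 member probes, 14 (in 11 genes) covered a genomic span longer than their own length. All 14 were at least 4-fold higher on day 3, with a median log2 ratio of 4.28 and a range from 2.02 to 6.68. Of the other 55 probes, none with a span above its length, 52 gave a ratio and 43 were at least 4-fold higher.

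Probes designed on full-length cDNA clones with accessions that begin with AK were seldom higher on day 3. There were 8 in 8 genes, and 5 of them gave a ratio. Of these 5, 3 lay within 2-fold and 1, that of Prc1, was at least 4-fold higher on day 3. All 59 probes designed on RefSeq transcripts gave a ratio, and 54 were at least 4-fold higher. The AK probe of Top2a had 0.0204, 0.0213 and 0.0256, a log2 ratio of 0.33, that of Cenpa had 0.08, that of Nuf2 -0.33 and that of Cdca8 -1.24. The AK probes of Cdkn3, Iqgap3 and Kif11 were not well above background on any array. Ska1 had a second RefSeq probe of 0.0381 on day 1 and 0.0180 on day 3, and not well above background on day 0, so its 284-fold difference rests on 1 of its 2 probes. When all probes of a gene were averaged, 39 of the 40 members were at least 4-fold higher on day 3 than on day 0, Bub1 among them at 3.36.

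**Figure D2:**
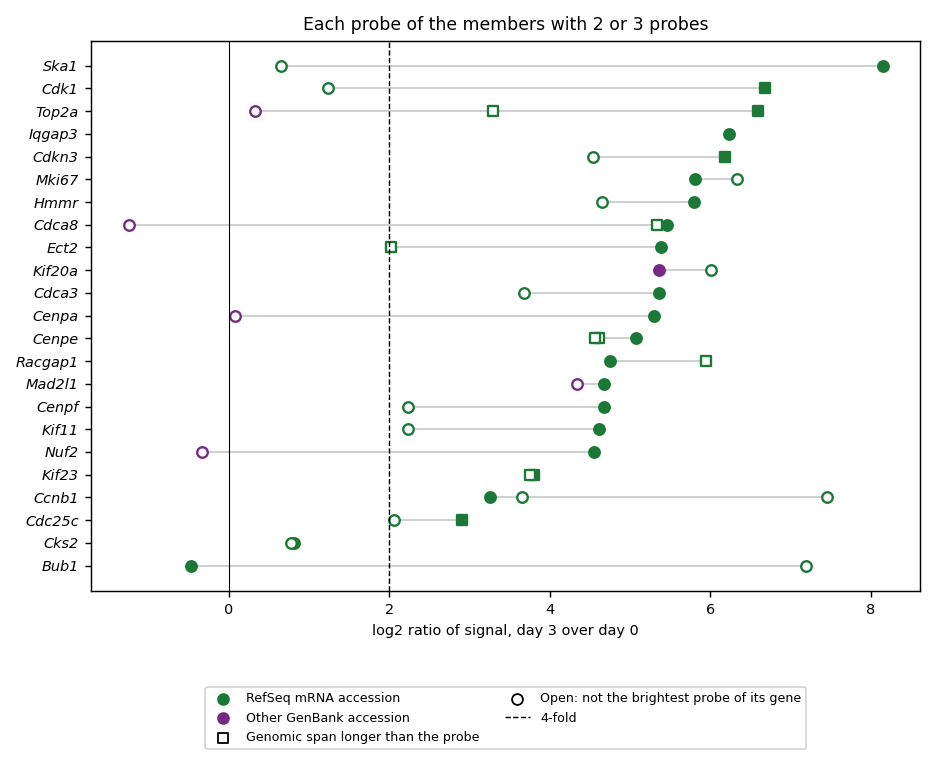
Log2 ratio of day 3 over day 0 for each probe of the members with 2 or 3 probes, 1 line per gene, from 1 array per day, filled where the probe stands for the gene, square where its genomic span exceeds its length and purple where it has no RefSeq mRNA accession. Most probes lie to the right of the dashed 4-fold line, and probes within 2-fold belong to Ska1, Top2a, Cenpa, Nuf2, Cks2 and Bub1.

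Genes of the same processes outside the list were also higher on day 3 in many cases. Of 128 such genes, 66 were at least 4-fold higher on day 3 than on day 0 and 1 was lower, with a median log2 ratio of 2.18. On day 1, 19 of the 128 were at least 4-fold higher and 4 lower, and between day 1 and day 3, 57 were higher. Both lists were drawn up by name with earlier results of these data known, and no test separates them.

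Among 22 other regulators, 9 were at least 4-fold higher on day 3, led by the mitotic kinases Melk (0.0548, 0.264 and 4.27, 77.9-fold) and Pbk (0.0759, 0.422 and 5.75, 75.7-fold). The lowest was Aurkc, an aurora kinase best known from germ cells, which had 0.841, 0.350 and 0.154 and was 5.45-fold lower, so that the 3 aurora kinases did not move together. Plk4, the polo-like kinase of centriole duplication, had a log2 ratio of 3.38, while the germ-line cyclins Ccna1 and Ccnb3 had 0.38 and -0.76.

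Of 34 other kinetochore and centromere genes, 25 were at least 4-fold higher on day 3, led by Cenph (71.2-fold) and Oip5 (70.7-fold), a loading factor for Cenpa. Spc25, a subunit of the complex of Ndc80 and Nuf2, had 4.59, 0.774 and 3.77 and was the lowest of the list at -0.28 (log2), while Spc24, the remaining subunit, was 12.9-fold higher. Of 20 other spindle genes, 15 were at least 4-fold higher, among them Tacc3 (51.5-fold) and Ckap2l (51.7-fold), and Numa1, which anchors spindle poles, lay at -0.23.

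The condensin and cohesin list had 9 of 18 genes at least 4-fold higher, with the condensin subunit Ncapg at 78.4-fold and the cohesion factor Cdca5 at 61.5-fold. Pttg1, securin, the inhibitor of separase that the exit machinery destroys, had 20.2, 9.55 and 8.88 and was 2.27-fold lower on day 3 than in fresh cells. Of 15 other cytokinesis genes, 7 were at least 4-fold higher. Depdc1a, too dim to be measured in fresh cells, was at least 44.3-fold higher, and of those measured on both days Cep55 (27.9-fold) and Shcbp1 (18.8-fold) were highest and Depdc1b lowest at -0.83 (log2). Of 19 subunits and regulators of the anaphase-promoting complex and of mitotic exit, 1 was at least 4-fold higher on day 3, its inhibitor Fbxo5 (Emi1) at 19.3-fold. Ube2s, which extends the ubiquitin chains begun by Ube2c, was 2.90-fold higher, and the phosphatase Cdc14a was lowest at -1.23. The exit genes Cdc20 and Ube2c thus stood among mostly flat partners, the median of the 19 being 0.63.

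The timing can be set beside that of 34 genes of DNA replication and the G1/S transition. On day 1, 16 of those 34 were at least 4-fold and 29 at least 2-fold higher than in fresh cells, with a median log2 ratio of 1.91, where the mitosis and G2/M genes had 7 and 16 of 40 and a median of 0.84. By day 3 the G1/S genes stood at 32 of 34 with a median of 3.47, and between day 1 and day 3 at 8 of 34 with a median of 1.54, where 37 of the 40 mitosis and G2/M genes were at least 4-fold higher over that step. Whether the 2 lists differ beyond culture-to-culture spread could not be tested with 1 array a day.

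**Figure D3:**
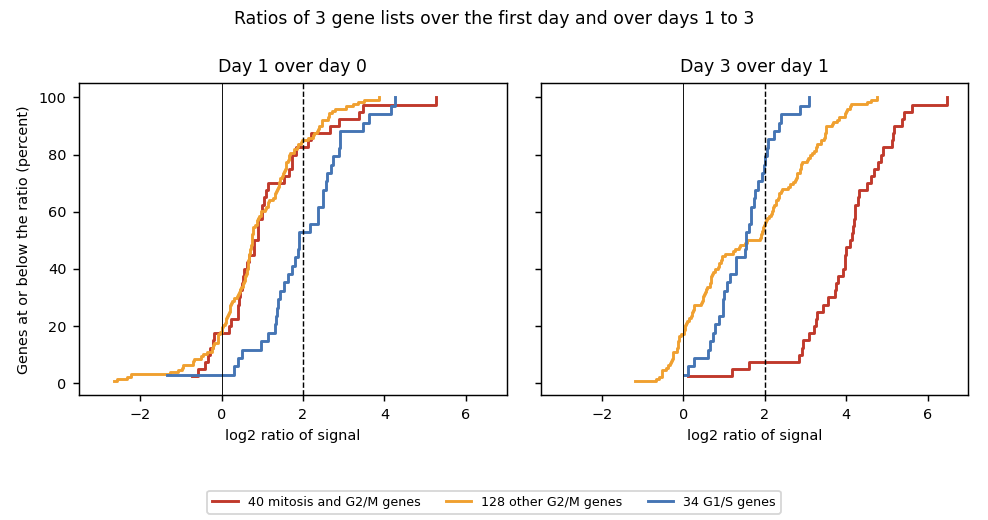
Cumulative share of genes (percent) at or below each log2 ratio, for day 1 over day 0 on the left and day 3 over day 1 on the right, in the 40 mitosis and G2/M genes, 128 other mitotic genes and 34 G1/S genes, from 1 array per day, with the dashed line at 4-fold. Through its middle the G1/S curve lies to the right of the others in the first step (medians 1.91 and 0.84), the curves crossing near both ends, and that of the 40 mitosis and G2/M genes lies to the right in the later one (medians 4.12 and 1.54).

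All 12 proximal tubule markers were well above background on every array, as were 93.7% of all named genes on day 1 and more on the other days, so that passing this line says little of a cell type. Their summed relative signal was 1112 on day 0, 188 on day 1 and 18.7 on day 3, with all 12 at least 4-fold lower on day 3. All 4 podocyte, 5 endothelial, 6 leukocyte and 6 fibroblast and pericyte markers were well above background on every array too. So were the 2 loop of Henle and 5 distal tubule and collecting duct markers. At least 4-fold lower on day 3 were 2 podocyte, 3 endothelial, 2 loop of Henle and 5 distal markers. No leukocyte or fibroblast marker was that much lower, and 1 leukocyte and 2 fibroblast markers were at least 4-fold higher. The summed fibroblast and pericyte signal was 5.19, 4.27 and 10.8, with Col1a1 7.12-fold, Col1a2 4.02-fold and Col3a1 3.05-fold higher on day 3, while Pdgfra, Pdgfrb and Dcn had log2 ratios of 0.10, -0.88 and -0.96. The summed leukocyte signal was 1.82, 3.14 and 1.96, with Cd68 12.2-fold higher on day 1 and Ptprc at -1.49 and Cd3e at -1.06 (log2). The endothelial sums were 21.3, 11.2 and 4.16, the podocyte 7.27, 1.37 and 1.65, the loop of Henle 333, 87.4 and 14.3, and the distal 60.1, 4.62 and 2.62. The part of these cells in the mitotic signal was not tested.

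Promoter sequence, which the choice of genes by name and the arrays did not use, was examined next. RefSeq promoters of 300 bases, from 250 before to 50 after the transcription start (GRCm38.p6), were matched for 32 of the 40 members, and a gene with several starts was counted once. Ska1, Incenp, Kif20a, Tpx2, Ccna2, Aurkb, Cdc25c and Foxm1 were not matched. The letters searched, on both strands, were TTTGAA, the core of the CHR, CCAAT, the box bound by NF-Y, and the E2F-type letters TTTCGCGC, TTTGGCGC, TTTCCCGC and TTTGCCGC. The CHR core and the CCAAT box share no stretch that makes a match of one a match of the other.

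The promoter stretches below cover the 100 bases before the start of 7 members that hold the CHR core within the 50 bases before the start. These 7 come from the role groups other than the kinetochore group. Other members of those groups hold a core only after the start and are not printed, among them Aurka and Plk1, whose cores begin at 33 and 31 bases. The stretches include that of Cks2 too, the member with a high level in fresh cells and no CHR core. They are written 5′ to 3′ on the strand of the gene, and capitals mark TTTGAA and CCAAT or their reverse complements TTCAAA and ATTGG. Minus-strand genes are Cdk1, Top2a and Cdc20.
Cdk1, chr10:69352913-69353012: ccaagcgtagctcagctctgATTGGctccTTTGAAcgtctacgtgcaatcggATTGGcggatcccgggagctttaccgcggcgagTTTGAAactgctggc
Top2a, chr11:99024190-99024289: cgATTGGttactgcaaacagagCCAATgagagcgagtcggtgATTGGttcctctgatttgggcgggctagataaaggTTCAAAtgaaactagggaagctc
Kif11, chr19:37376282-37376381: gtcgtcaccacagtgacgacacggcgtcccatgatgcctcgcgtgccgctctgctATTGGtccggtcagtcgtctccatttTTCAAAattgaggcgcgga
Prc1, chr7:80294376-80294475: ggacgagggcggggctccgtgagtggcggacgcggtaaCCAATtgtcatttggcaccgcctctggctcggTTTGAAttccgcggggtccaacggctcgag
Iqgap3, chr3:88081951-88082050: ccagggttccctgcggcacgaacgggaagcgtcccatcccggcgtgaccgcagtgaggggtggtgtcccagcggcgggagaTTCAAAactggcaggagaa
Cdc20, chr4:118437344-118437443: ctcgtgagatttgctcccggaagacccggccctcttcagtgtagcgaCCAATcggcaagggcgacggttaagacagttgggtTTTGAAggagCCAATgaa
Ube2c, chr2:164769829-164769928: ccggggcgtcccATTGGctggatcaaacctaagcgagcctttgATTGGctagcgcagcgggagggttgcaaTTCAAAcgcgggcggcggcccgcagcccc
Cks2, chr13:51645132-51645231: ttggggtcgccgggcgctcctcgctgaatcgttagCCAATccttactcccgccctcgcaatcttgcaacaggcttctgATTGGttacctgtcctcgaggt

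The CHR core lay in the promoters of 24 of the 32 matched members (75%), of 20.2% of all 27025 genes with a promoter in the table, of 3 of 28 G1/S genes (10.7%) and of 44 of 106 other mitotic genes (41.5%). It lay close to the start, beginning within 50 bases before it or in the 50 bases after it, in 21 of 32 members (65.6%), against 5.72% of all genes. The CCAAT box was found in 26 of 32 members, against 41.1% of all genes, 17 of 28 G1/S genes and 61 of 106 other mitotic genes (57.5%). Both motifs together were found in 21 members, against 7.97% of all genes and 29.2% of the other mitotic genes. In all 21 a CCAAT box lay before the CHR core nearest the 3′ end of the window. Between that core and the nearest such box lay a median of 30 bases, with a range from 4 to 148. The window reaches 250 bases before the start and 50 after it, which favours a box before a core near the start. That order was not counted in other genes with both motifs. The E2F-type letters were found in 1 member, Cdk1, against 2.60% of all genes, 12 of 28 G1/S genes (42.9%) and 13 of 106 other mitotic genes (12.3%).

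Members without the CHR letters were not a flat group. The 8 without it were Birc5, Bub1, Ccnb1, Cenpe, Cks2, Mad2l1, Nek2 and Nuf2, with a median log2 ratio of 4.61 between day 3 and day 0 and a range from -0.47 to 6.65, and 6 of them were at least 4-fold higher. The 24 with it had a median of 5.38 and a range from 3.47 to 6.68, and all 24 were at least 4-fold higher. The 2 members under 4-fold on day 3, Cks2 and Bub1, were both in the group without it, but Bub1 was so on its brighter probe alone, with 7.19 on the other and 3.36 on average. A match of letters is not a binding site, and the absence of one says only that these letters are not in this window.

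**Figure D4:**
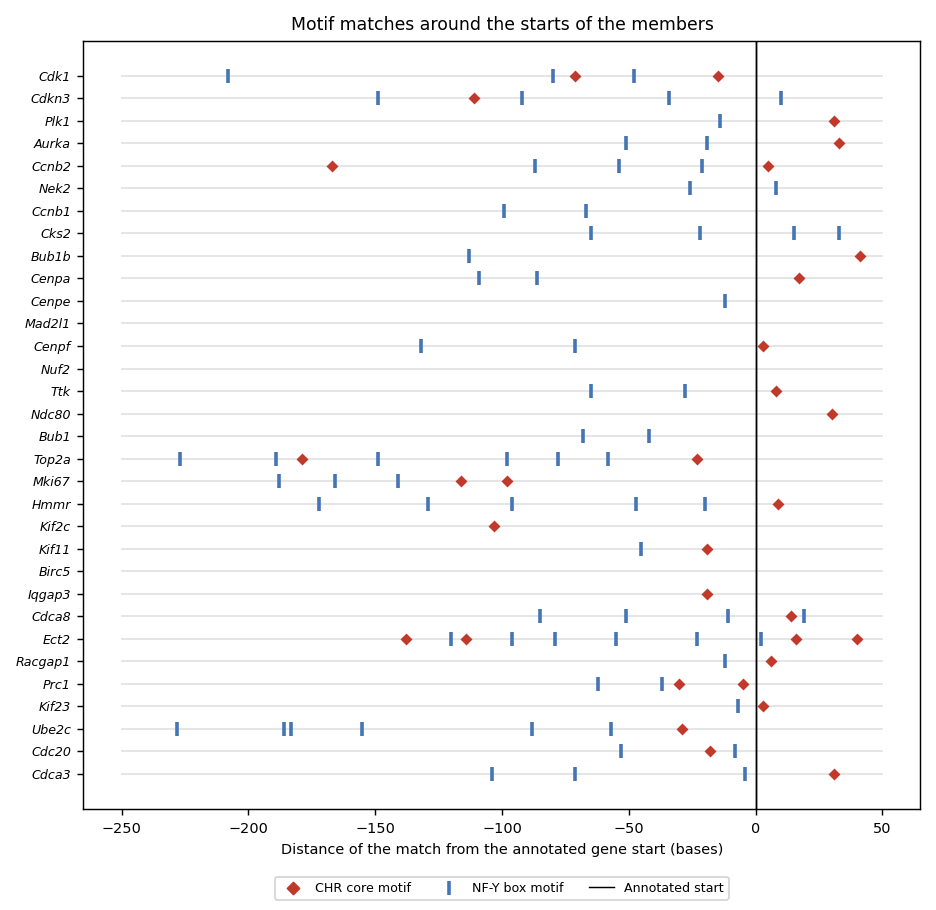
Positions of TTTGAA (CHR core) and CCAAT matches on either strand in the 300-base promoters of the matched members, as bases from the transcription start, 1 line per gene. The CHR matches gather near the start, with 21 of 32 members holding one from 50 bases before the start onward. The CCAAT matches lie mostly before them, in a window with more bases before the start than after it.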

How the data were processed

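The authors' deposited array files gave each spot's processed signal, mean signal and local background as intensity, from Feature Extraction 10.5.1.1 per the file headers (9.1 per the submitters' processing notes), and flags of other kind, 0 or 1. Per the file headers the 3 arrays lay on 1 slide, and a multiplicative trend correction was applied on days 0 and 1 but not day 3. The authors' deposited value table held a ratio, the processed signal over the array's 75th percentile, to within 0.001 for all 43379 values per array. The same scaling was applied to the processed signal here (Python 3.11.15, numpy 2.4.6, pandas 2.3.3). Outlier spots were left out, spots of a probe averaged, and probes named by accession, then symbol, then synonym in RefSeq's GRCm38.p6 table (8429 stayed unnamed). 1 probe listed under Aim1, a synonym of Aurkb, carried the accession of another gene and was left out. Each gene was represented by its brightest probe, by mean log2 signal of the 3 days. A probe not well above background on 1 array gave a bound against the lowest signal well above background there. No spot was saturated, and precision is limited by the number of arrays. All members were named. Of each other mitotic list, the 2 genes with the highest and the 1 with the lowest day 3 over day 0 ratio, among genes measured on both arrays, were named, with relatives of members; Depdc1a and Spc24 were added after their values were seen. The members and lists were chosen with earlier results of these data known. Alternatives were median, quantile, spike-in and reference gene scaling, and normexp background (offset 50, limma 3.58.1, R 4.3.3). Others were probe averaging, no bounds, the authors' table, and 2-fold and 8-fold thresholds. The counting was tested on simulated data.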

Additional observations from a re-analysis of the deposited data

How the results depend on the processing

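Under every alternative that kept the 4-fold line, 37 to 39 members were higher for day 3 over day 0 and 36 or 37 for day 3 over day 1. From 2-fold the counts were 38 and 39, and from 8-fold 37 and 34, in the same order. No median changed sign. The day 1 over day 0 count was 7 and became 4 with normexp background, 16 from 2-fold and 3 from 8-fold; it lay between 5 and 8 otherwise. The day 1 over day 0 median (0.84) was 1.05 with median centring, 1.05 with quantile normalization, 0.55 with reference genes and 0.53 with normexp. The day 3 over day 0 median (5.31) was 5.62 with median centring, 5.75 with spike-ins, 5.09 with reference genes, 4.90 with normexp, 4.70 with all probes averaged and 4.95 with RefSeq probes averaged, an alternative chosen after seeing the data. The day 3 over day 1 median (4.12) was 4.39 with spike-ins, 3.79 with normexp and 3.80 with all probes averaged. The cause of these shifts was not tested. Among single genes on day 1, Ska1 (1.54), Top2a (1.55) and Aurkb (1.33) fell short of 4-fold with normexp, Birc5 (1.83) and Cdca8 (1.90) with reference genes, and Cdk1 (1.51), Top2a (1.18) and Cdca8 (1.02) with all probes averaged. From day 1 to day 3, Nuf2 (1.70) and Ska1 (1.80) did so with all probes averaged. No paired analysis was possible because each day had 1 array, and no replicate could be left out. Signals near background, such as those of Aurkb, Ska1, Ttk and Kif11 on day 0, limit how large a ratio can be measured.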
